A study of Sus scrofa with 6 samples.

Results

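The V-ATPase is a rotary proton pump that uses ATP to acidify lysosomes, secretory granules and, in some epithelia, the fluid outside the cell. Its peripheral V1 sector hydrolyses ATP and its membrane-embedded V0 sector carries the protons, and several subunits come in a ubiquitous and an epithelial form encoded by separate genes. The C subunit joins V1 to V0 and is released when the pump is taken apart. In the mouse, the epithelial form ATP6V1C2 is known from kidney and lung, where a splice form lies on the lamellar bodies of alveolar type II cells, the acidic organelles that store surfactant. FOXI1 is the transcription factor of acid-secreting epithelial cells and of airway ionocytes, and it drives epithelial subunit genes such as ATP6V1B1 and ATP6V0A4.

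The family was defined by 10 symbols: ATP6V1C2, ATP6V1C1, ATP6V1A, ATP6V1B1, ATP6V1B2, ATP6V0A1, ATP6V0A4, ATP6V0D1, ATP6V0D2 and FOXI1. Of these, 7 were rows among the 14579 mRNAs of the deposited table. ATP6V1B2, the ubiquitous B subunit, ATP6V0D2, the epithelial and osteoclast d subunit, and FOXI1 matched no row and were not analysed here. A symbol without a row may have been below the authors' filter or listed under an identifier with no paired name. Its absence, here or in the lists below, is thus not read as lack of expression. The family was chosen by the fall of ATP6V1C2 between the groups, so the values of that gene are a description and carry no test. The other genes were taken by name, with this result known.

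RNA came from lung tissue of 6 female piglets, crosses of a Tibetan sire with a Meishan dam. The fetal group held 3 piglets, taken by caesarean from 3 sows on the last day of gestation, and the neonatal group held 3 piglets from 3 other sows, sampled 2 days after birth. Each piglet gave 1 Ribo-Zero strand-specific library, so the spread between samples is that between animals, and age, birth and the sow cannot be told apart as sources of a difference. Lung identity was visible in the surfactant gene SFTPC, at 3171 to 8790 FPKM, and in the alveolar type I gene AGER, at 396 to 767 FPKM. Values are FPKM, which are scaled per length of transcript, and may be compared between genes. The table gives no read counts, so no counting error was attached to single values. Differences are neonatal minus fetal on log2(FPKM + 1), a scale that understates changes of genes with low FPKM, and were fitted in limma over all mRNAs. The FPKM of a sample summed to between 339491 and 777982, and each neonatal sum was above each fetal sum. The median difference of all mRNAs was 0.13, and -0.0090 after median-of-ratios scaling between samples, and small differences are read against it. In bulk tissue, fewer cells of a type and less RNA per cell cannot be told apart.

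ATP6V1C2 (ENSSSCG00000008634) reached 33.4 FPKM in Fetal1, 22.7 FPKM in Fetal2 and 19.1 FPKM in Fetal3. After birth, it was at 2.94 FPKM in Neonatal1, 1.12 FPKM in Neonatal2 and 2.71 FPKM in Neonatal3 (other genes follow in the same order of samples). The lowest fetal value was far above the highest neonatal value. The mean was 11.1 times higher in the fetal group, and the log2 difference was -3.01 (standard error 0.31). In the fetal group, 87.7% of all mRNAs had a lower mean FPKM than ATP6V1C2, and in the neonatal group 26.3% did. With 1 sample left out, the difference lay between -3.18 and -2.73, and under other pseudocounts and scalings it reached -3.48.

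ATP6V1C1 (ENSSSCG00000006054), the ubiquitous C subunit, had fetal values of 8.49, 6.62 and 6.02 FPKM and neonatal values of 5.88, 8.65 and 6.99 FPKM. The groups overlapped over their whole range, with a log2 difference of 0.02 (95% confidence interval -0.47 to 0.51; adjusted p = 0.959 in limma). This small value turned negative under scaling between samples, at -0.13 with median-of-ratios size factors. ATP6V1C2 thus made up 79.7%, 77.4% and 76.0% of the summed FPKM of both C genes in the fetal samples, and 33.4%, 11.5% and 28.0% in the neonatal samples. The sum of both C genes went from 41.9, 29.3 and 25.1 FPKM to 8.82, 9.77 and 9.71 FPKM. The spread was wide among the fetal samples and narrow among the neonatal ones.

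ATP6V1A (ENSSSCG00000011916), the catalytic subunit that hydrolyses ATP, had 7.46, 7.14 and 5.51 FPKM before birth and 10.8, 5.86 and 6.42 FPKM after it. Neonatal1 alone was above the fetal range. The log2 difference was 0.14 (95% confidence interval -0.45 to 0.73; adjusted p = 0.765 in limma), and it was -0.10 without Neonatal1. Within a sample, the sum of both C genes was 5.62, 4.11 and 4.55 times the FPKM of ATP6V1A before birth. After birth it was 0.817, 1.67 and 1.51 times. The ratio of ATP6V1C1 alone to ATP6V1A was 1.05 ± 0.111 and 1.04 ± 0.468 (SD, n = 3 each). A ratio within a sample does not move when a sample is multiplied by 1 factor.

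ATP6V1B1 (ENSSSCG00000008314), the epithelial B subunit of kidney and inner ear, was the lowest member. Its fetal values were 0.0869, 0.794 and 0.111 FPKM, and its neonatal values 0.0838, 0.0142 and 0.200 FPKM. Only Fetal2 was above 0.5 FPKM, the limit by which the authors kept a row. The log2 difference was -0.24 (standard error 0.26, adjusted p = 0.611 in limma), and -0.83 with a pseudocount of 0.1, again with no call.

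**Figure D1:**
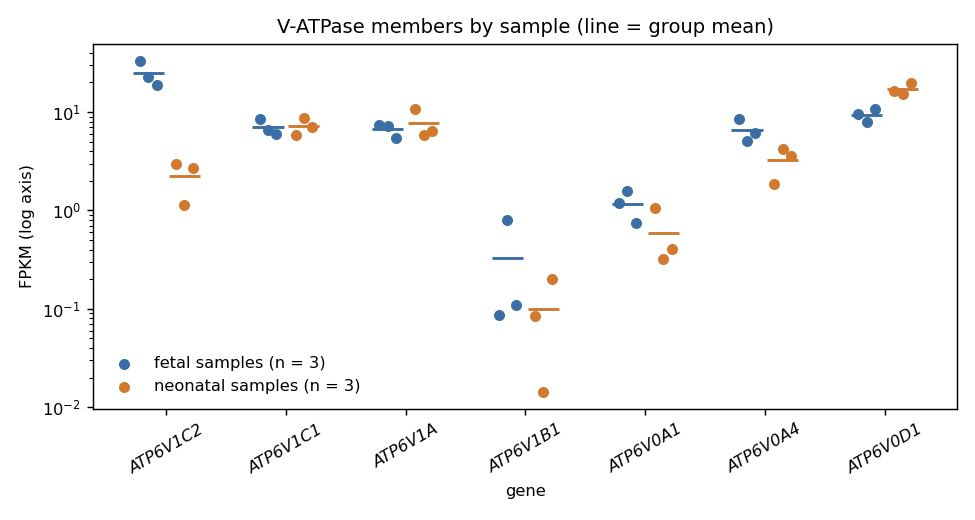
FPKM of the 7 members in each sample on a log axis, with fetal samples in blue, neonatal samples in orange and a line at each group mean. ATP6V1C2 lies at 19.1 to 33.4 FPKM before birth and at 1.12 to 2.94 FPKM after it, ATP6V0A4 and ATP6V0D1 separate by smaller steps in opposite directions, and the other 4 overlap.

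Among the V0 members, ATP6V0A4 was lower and ATP6V0D1 higher in every neonatal sample, but neither passed the threshold of an adjusted p of 0.05. ATP6V0A4 (ENSSSCG00000016516) encodes the epithelial form of the a subunit, which forms the proton path and sends the pump to its membrane. It had 8.46, 5.04 and 6.18 FPKM before birth and 1.87, 4.23 and 3.58 FPKM after it. The mean was 2.03 times higher in the fetal group, with a log2 difference of -0.86 (95% confidence interval -1.53 to -0.18; adjusted p = 0.126 in limma). Its adjusted p lay between 0.0638 and 0.302 over the alternatives.

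ATP6V0D1 (ENSSSCG00000002776), the ubiquitous d subunit of the central stalk, had fetal values of 9.67, 7.90 and 10.7 FPKM and neonatal values of 16.4, 15.3 and 19.9 FPKM. No fetal value reached the lowest neonatal one. The neonatal mean was 1.82 times the fetal mean, with a log2 difference of 0.80 (95% confidence interval 0.36 to 1.25; adjusted p = 0.0506 in limma). When mRNAs without FPKM above 1 in at least 3 samples were left out, the adjusted p was 0.0428, and under the other alternatives it lay above the threshold, up to 0.177. ATP6V0A1 (ENSSSCG00000017401), an a subunit best known from neurons, had 1.19, 1.59 and 0.741 FPKM and then 1.05, 0.321 and 0.401 FPKM, with overlap (log2 difference -0.46, standard error 0.26, adjusted p = 0.329 in limma). With a pseudocount of 0.1 its difference was -0.97, again with no call.

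The a subunit has 4 genes, and all were in the table. ATP6V0A2, known from the Golgi and endosomes, had means of 8.13 ± 2.25 and 9.23 ± 0.873 FPKM (SD, n = 3 each), and all its neonatal values lay within the fetal range of 6.37 to 10.7 FPKM. TCIRG1, which encodes the a subunit of lysosomes and osteoclasts, had 5.11, 3.02 and 2.31 FPKM and then 4.62, 4.06 and 12.6 FPKM, so that Neonatal3 alone was above the fetal range. Of the FPKM summed over the 4 genes, ATP6V0A4 held 38.3%, 31.4% and 31.1% in the fetal samples. It held 11.5%, 24.3% and 13.3% in the neonatal samples, lower by a mean of 17.2 points. The two-sided exact permutation test gave p = 0.1, which any full separation of 3 against 3 gives and below which it cannot go. This share was chosen after the values were seen to separate, so the p adds nothing to them. The sum itself was 19.3 ± 3.08 FPKM and 20.2 ± 5.83 FPKM (SD, n = 3 each).

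Both ATP6V0A4 and ATP6V0A1 were lower on average after birth, and the ratio of the one to the other within a sample overlapped between the groups. On log2(FPKM + 1) it was 2.11, 1.22 and 2.04 in the fetal samples and 0.48, 1.99 and 1.71 in the neonatal samples, a difference of -0.40 (two-sided p = 0.5 in the exact permutation test). Without Neonatal1 the difference was 0.056, and with a pseudocount of 0.1 it was -0.075. The direction of this ratio thus rested on 1 sample.

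**Figure D2:**
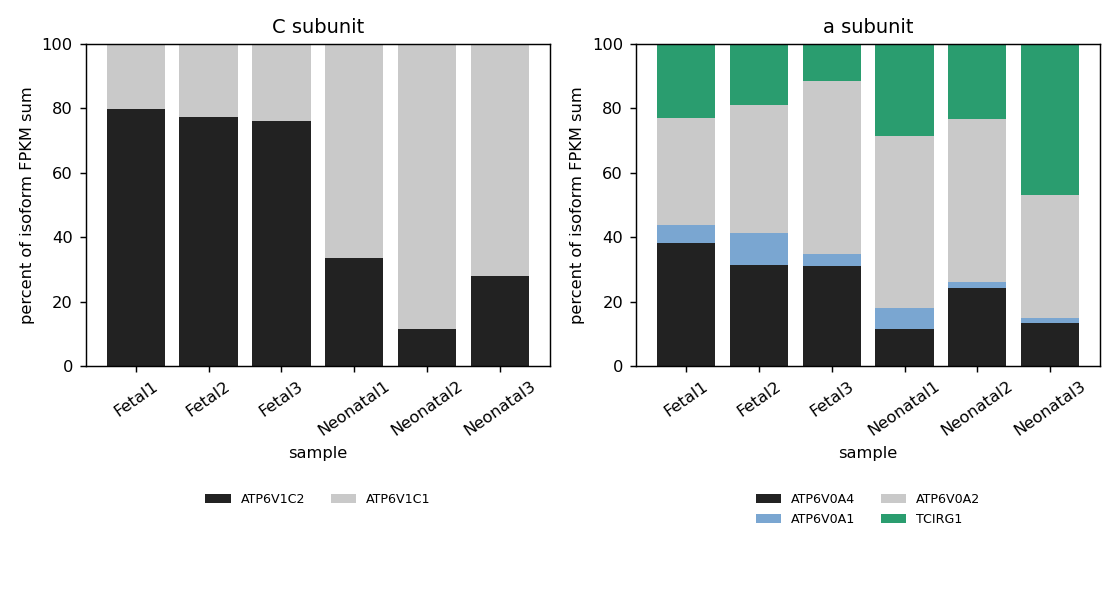
Percent of the summed FPKM of the isoform genes of the C subunit (left) and the a subunit (right) in each sample, as stacked bars. ATP6V1C2 holds 76.0% to 79.7% of the C genes before birth and 11.5% to 33.4% after it, and ATP6V0A4 goes from 31.1% or more of the a genes to 24.3% or less.

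By level, ATP6V1C2 stood first among the members in the fetal group, above every value of the others. ATP6V0D1, ATP6V1C1, ATP6V1A and ATP6V0A4 followed with means of 9.44, 7.04, 6.70 and 6.56 FPKM and overlapping ranges, and ATP6V0A1 and ATP6V1B1 came last, also with overlap. In the neonatal group ATP6V0D1 stood first, above every value of the others, at 17.2 ± 2.40 FPKM (SD, n = 3). ATP6V1A and ATP6V1C1 overlapped with means of 7.70 and 7.17 FPKM, as did ATP6V0A4 and ATP6V1C2 with means of 3.23 and 2.26 FPKM. ATP6V0A1 and ATP6V1B1, at 0.592 and 0.0993 FPKM, lay below them without overlap with each other.

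The other subunits widen the view of the pump. With the 6 members tested, 4 further V1 subunits of 8 listed and 4 further V0 subunits of 7 listed, 14 subunit genes other than ATP6V1C2 were in the table. Of these, 10 had a higher and 4 a lower mean after birth, with ATP6V1C1 and ATP6V1A moving to the lower side under median-of-ratios scaling. The rows of ATP6V1B1 and ATP6V1E2, both lower, were kept only through fetal samples above 0.5 FPKM. That of ATP6V1G2, higher, was kept only through Neonatal2. The place of these genes in the counts depends on that. ATP6V0C got its symbol only from the study's list of differentially expressed mRNAs. Its place in the counts and in the V0 median thus depends on a change in these same samples. None of the 14 passed the threshold in limma, where 6.87% of all mRNAs did. An unadjusted p under 0.05 was reached by 3 of the 14 (ATP6V0A4, ATP6V0C and ATP6V0D1), and by 3535 of the 14579 mRNAs. The groups did not overlap for the same 3 genes, or 21.4%, against 30.5% of all mRNAs. ATP6V0C and ATP6V0D1, higher after birth, compare with 20.9% of all mRNAs that were higher without overlap, and ATP6V0A4 with 9.64% that were lower without overlap. The median log2 difference was 0.14 over the 7 V1 subunits and 0.39 over the 7 V0 subunits, against 0.13 over all mRNAs.

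ATP6V0C encodes the proteolipid of the rotating ring that carries the protons. Its fetal values were 17.2, 13.9 and 17.2 FPKM, and its neonatal values 34.5, 34.4 and 21.4 FPKM (log2 difference 0.84, standard error 0.23, adjusted p = 0.0801 in limma). All neonatal values lay above the fetal ones, Neonatal3 the least. As the name of ATP6V0C came from the study's list of changed mRNAs, this separation is a description. ATP6V1F, a small subunit of the central stalk, was the most abundant of the subunit genes with a row in the table. It had 34.8 to 52.9 FPKM before birth and 41.0, 109 and 82.5 FPKM after it, with overlap (adjusted p = 0.281 in limma). ATP6V1H, which regulates ATP hydrolysis, had log2 difference 0.43 (adjusted p = 0.318 in limma), and RNASEK, a small protein of the V0 membrane sector, had 0.39 (adjusted p = 0.314 in limma). ATP6V1E2 and ATP6V1G2, known from testis and brain, stayed at or below 1.18 FPKM in all 6 samples.

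Of the 16 accessory, assembly and regulatory factors listed, 6 were in the table, 5 of them with a negative difference, and none passed in limma (1 with an unadjusted p under 0.05, WDR7). NCOA7, the exception at 0.13, was at -0.019 under median-of-ratios scaling. ATP6AP2, the accessory subunit also known as the prorenin receptor, had fetal values of 33.1, 26.6 and 31.6 FPKM and neonatal values of 18.4, 22.6 and 26.7 FPKM (log2 difference -0.43, standard error 0.20, adjusted p = 0.240 in limma). Fetal2 and Neonatal3 were nearly equal. After quantile normalization the difference was -0.70 with an adjusted p of 0.0254 in limma. DMXL1 and WDR7, subunits of the complex that puts V1 and V0 together, had log2 differences of -0.42 and -0.56 without overlap of the groups (adjusted p = 0.244 and 0.168 in limma). NCOA7 also did not overlap, with higher neonatal values, so that 50.0% of the 6 did not overlap, 1 higher and 2 lower, against 30.5% of all mRNAs. OXR1 and MEAK7, proteins with a TLDc domain as NCOA7 is, had differences of -0.0030 and -0.19.

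**Figure D3:**
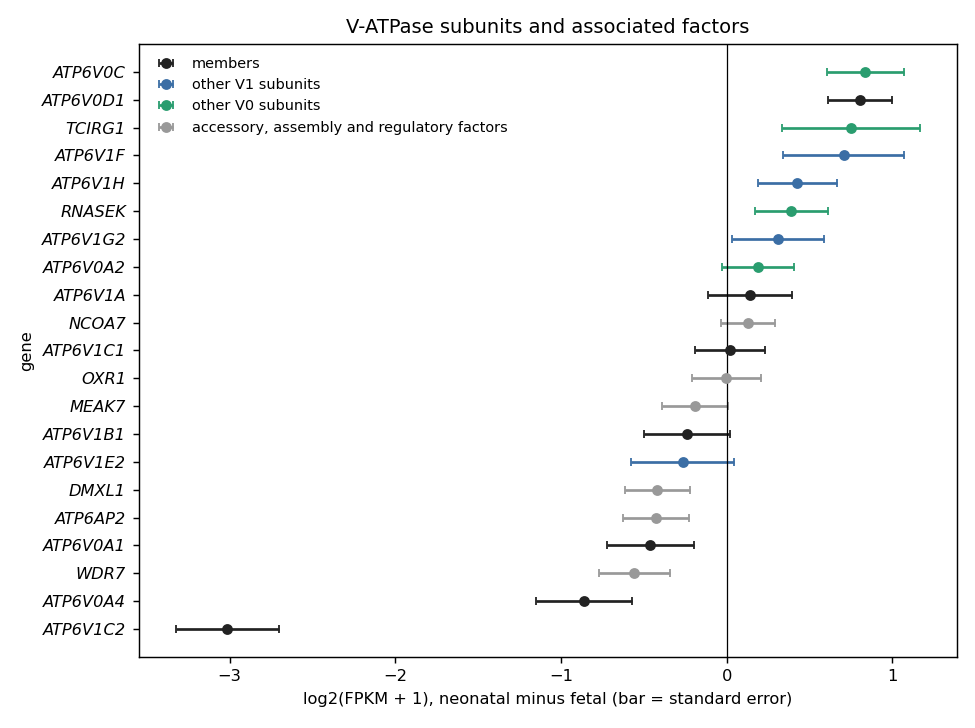
Difference of log2(FPKM + 1), neonatal minus fetal, for the 21 V-ATPase genes in the table, with bars of 1 standard error. ATP6V1C2 lies at -3.01, and the other 20 lie between -0.86 for ATP6V0A4 and 0.84 for ATP6V0C.

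Markers of lung cell types were then read beside ATP6V1C2. Of 10 alveolar type II cell markers, 9 were in the table, 7 with a positive difference, and none passed in limma (1 with an unadjusted p under 0.05, SFTPA1). SFTPA1 had the highest difference of the 9, at 0.97, and was named only from the study's list of differentially expressed mRNAs. Its place in these counts and in the median depends on that. The summed FPKM of the 9 was 4912 to 5503 in the fetal samples and 6660 to 11826 in the neonatal samples, with none at 0 and no overlap. The FPKM of all mRNAs also summed higher in every neonatal sample (491548 to 777982, against 339491 to 471220). The share of the 9 in that total was not tested. SFTPC had 3171, 3450 and 3902 FPKM and then 4233, 6097 and 8790 FPKM, and SFTPB, another surfactant protein gene, had 672, 621 and 729 FPKM and then 908, 907 and 1130 FPKM (adjusted p = 0.320 in limma). SFTPC made up most of the summed FPKM of the 9. The median difference of the 9 was 0.27, against 0.13 over all mRNAs, and 4 markers named after their values were seen lay near 0 or below it, SLC34A2 at 0.07, ETV5 at 0.05, LPCAT1 at -0.0041 and NAPSA at -0.24. The part of type II cells in the values of ATP6V1C2 was not tested. Of 8 alveolar type I cell markers, 4 were in the table, among them AGER and CAV1, with log2 differences from -0.33 to 0.58, no call and 0 with an unadjusted p under 0.05 in limma.

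For ionocytes and acid-secreting cells, 10 of 21 listed genes were in the table, and none passed in limma. Against 3535 of the 14579 mRNAs, 4 of the 10 had an unadjusted p under 0.05. Their sums overlapped, at 30.1 to 34.2 FPKM in the fetal samples and 30.2 to 37.5 FPKM in the neonatal samples. The most abundant were CFTR, the chloride channel, with 7.98 ± 0.450 and 11.1 ± 2.70 FPKM (SD, n = 3 each), and STAP1, an adaptor also known from B cells, with 8.70 ± 3.06 and 6.40 ± 1.75 FPKM (SD, n = 3 each). Named after their values were seen, 3 genes were lower without overlap. TFCP2L1, a transcription factor of kidney collecting duct and other epithelia, had 1.24, 1.26 and 0.989 FPKM and then 0.221, 0.435 and 0.251 FPKM (adjusted p = 0.0712 in limma). All its neonatal values were below 0.5 FPKM, so its row was kept only through the fetal group. Its test and its place in the counts depend on that. The row of DMRT2, whose groups overlapped, was likewise kept only through Fetal3, at 0.504 FPKM. HEPACAM2 had 1.13, 1.76 and 1.00 FPKM and then 0.785, 0.0765 and 0.310 FPKM (adjusted p = 0.141 in limma), and PDE1C, a phosphodiesterase, had means of 2.21 and 1.12 FPKM (adjusted p = 0.128 in limma). Another 3 of the 10, CFTR, SLC4A4 and KIT, were higher without overlap, so that 60.0% of the 10 did not overlap, against 30.5% of all mRNAs.

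Airway cells were read in the same way. Of 7 airway secretory cell markers 4 were in the table, with sums of 2425 to 7162 FPKM in the fetal samples and 1203 to 3381 FPKM in the neonatal samples, with overlap, no call and 0 with an unadjusted p under 0.05 in limma. SCGB3A2, a secretoglobin of airway cells, had 2136, 6558 and 6790 FPKM and then 1406, 899 and 2844 FPKM, a log2 difference of -1.57. BPIFA1, a secreted airway defence protein, lay on the other side of 0 at 1.44, with 2.48, 353 and 119 FPKM and then 70.5, 249 and 164 FPKM, and overlapped. SCGB1A1, the club cell secretoglobin, named after its values were seen, had 139, 119 and 99.8 FPKM and then 62.2, 0.213 and 62.0 FPKM (adjusted p = 0.265 in limma). Its log2 difference was -2.82, and -0.92 without Neonatal2 (adjusted p = 0.118 in limma), which was computed after the data were seen. SCGB3A1, another secretoglobin, also named after its values were seen, had means of 124 ± 28.0 and 151 ± 140 FPKM (SD, n = 3 each) with overlap. Neonatal2, with almost no SCGB1A1, also had the lowest ATP6V1C2, and without it the log2 difference of ATP6V1C2 was -2.73. Of 7 ciliated cell markers, FOXJ1 and CCDC39 were in the table, with log2 differences of -0.31 and -0.41 and no call. The part of airway cells in the values of ATP6V1C2 was not tested.

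Lysosomes depend on the same pump, and 18 of 21 genes listed for lysosomes and lamellar bodies were in the table. Of these, 3 passed in limma, all higher after birth, against 6.87% of all mRNAs. CTSL, a lysosomal protease, rose from 1.67, 1.38 and 1.08 FPKM to 7.55, 9.62 and 12.5 FPKM (log2 difference 2.18, adjusted p = 0.00435 in limma). TFE3, a transcription factor of lysosomal genes, rose from 12.9, 11.0 and 11.9 FPKM to 18.9, 24.2 and 26.9 FPKM (adjusted p = 0.0349 in limma). GAA, the acid glucosidase, rose from 4.86, 3.83 and 5.73 FPKM to 9.27, 10.0 and 10.9 FPKM (adjusted p = 0.0329 in limma). The neonatal to fetal ratios of the 3, 7.19 for CTSL, 1.95 for TFE3 and 2.09 for GAA, stand beside 1.82 for ATP6V0D1 and 1.87 for ATP6V0C. SLC9A8, an endosomal sodium-proton exchanger named after its values were seen, had 4.75, 4.78 and 2.31 FPKM and then 2.15, 0 and 0.395 FPKM (listed at 0 in Neonatal2; adjusted p = 0.0871 in limma). Of the 18 genes, 12 had a positive and 6 a negative difference. Their median was 0.24, against 0.13 over all mRNAs.

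Macrophages are rich in lysosomes, and 7 of 10 listed macrophage and osteoclast-like cell markers were in the table. All 7 had a positive difference, as did 8729 of the 14579 mRNAs, with a median log2 difference of 1.08. An unadjusted p under 0.05 was reached by 6 of the 7, and by 3535 of all mRNAs. CSF1R, named after its values were seen, was at 0.057 with overlap, below the median of 0.13 over all mRNAs. Against 6.87% of all mRNAs, 1 of the 7 passed, SPI1, a myeloid transcription factor (14.0 ± 2.44 and 33.0 ± 7.98 FPKM, SD, n = 3 each; adjusted p = 0.0329 in limma). Their sums were 131 to 362 FPKM in the fetal samples and 295 to 718 FPKM in the neonatal samples, with overlap and no marker at 0. The part of macrophages in the values of ATP6V0D1, ATP6V0C and TCIRG1 was not tested.

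**Figure D4:**
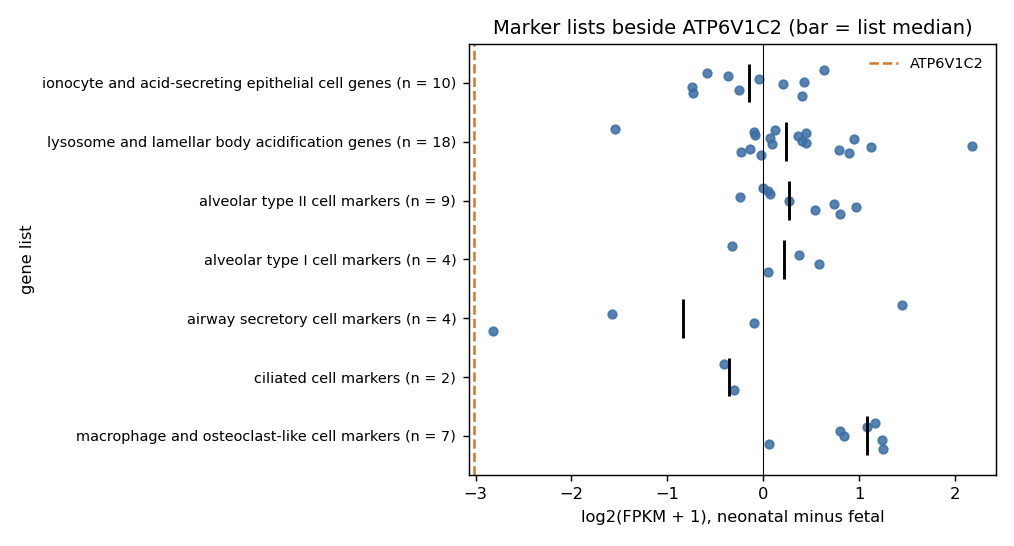
Difference of log2(FPKM + 1), neonatal minus fetal, for the genes of 7 lists (points) with list medians (bars) and ATP6V1C2 (dashed line at -3.01). Alveolar type II markers centre at 0.27 and macrophage markers at 1.08, and the lowest point, SCGB1A1 at -2.82, rests on Neonatal2 and is at -0.92 without it.

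Over the 6 samples, the mRNAs most like ATP6V1C2 were sought by Pearson r on log2(FPKM + 1) among 2166 mRNAs with a symbol, a mean FPKM of at least 1 and a standard deviation of at least 0.5. The 10 closest had r between 0.985 and 0.998, and 44 reached 0.95. With 6 points in 2 groups, such values follow largely from any difference between the groups and are given as a description. Closest were LIFR, the receptor of leukemia inhibitory factor, and DNAI4, a dynein chain of motile cilia. LIFR had fetal values of 29.1, 23.4 and 20.2 FPKM and neonatal values of 10.0, 7.57 and 9.71 FPKM. The same order of samples held for LIFR and ATP6V1C2 within the fetal group, with Fetal1 highest, and Neonatal2 was lowest in both. DNAI4 had means of 5.69 ± 0.820 and 1.18 ± 0.458 FPKM (SD, n = 3 each). The others were MISP, a spindle protein, PTPRU, a receptor phosphatase, the peptide receptor QRFPR, the organic anion transporter SLCO4C1, the tubulin TUBA4A, the Wnt receptor FZD9, FAM107A and the adrenergic receptor ADRA1B. Their log2 differences ranged from -0.89 for SLCO4C1 to -2.64 for FAM107A, so none fell as far as ATP6V1C2.

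**Figure D5:**
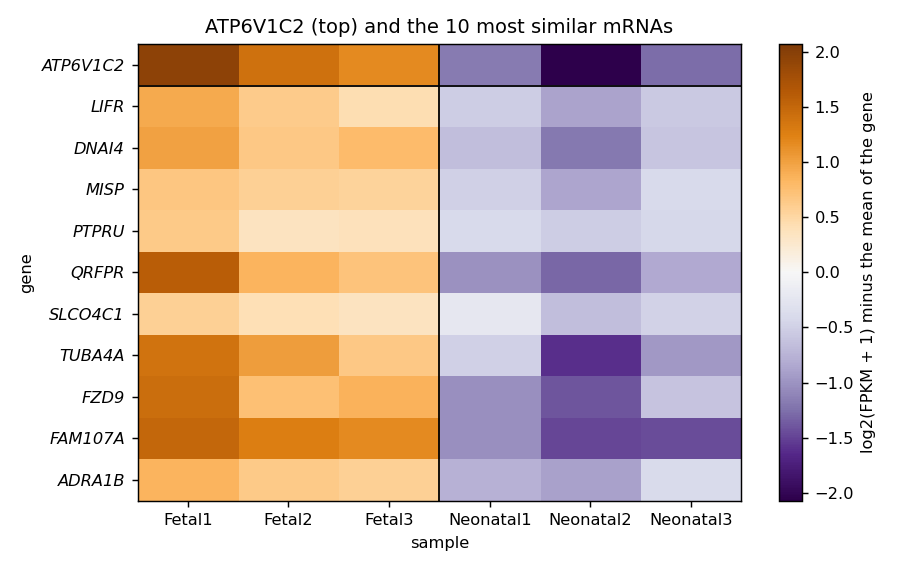
Heat map of log2(FPKM + 1) minus the mean of each gene over the 6 samples, for ATP6V1C2 and the 10 mRNAs with the highest Pearson r to it (0.985 to 0.998). All 11 are above their mean in the 3 fetal samples and below it in the 3 neonatal samples, and ATP6V1C2 shows the widest range.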

How the data were processed

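Lung RNA of 3 fetal and 3 neonatal piglets was sequenced from Ribo-Zero strand-specific libraries. The authors mapped quality-filtered reads to Sscrofa10.2 with TopHat 2.1.0 and computed the deposited FPKM with Cufflinks 2.2.1. They kept mRNAs with FPKM above 0.5 in at least 1 sample, which all 14579 rows met. Depth per sample is not shown by the table. Symbols came from a table of Ensembl names (9478 rows). Where a name was missing, they came from the study's supplementary list of differentially expressed mRNAs (362 rows), of which a part was held. An unnamed mRNA outside that list could not enter a gene list, so counts and medians of the lists may lean towards change. ATP6V0C and SFTPA1 were among those named in this way. The lncRNA table was not used.

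Values were analysed as log2(FPKM + 1) in limma 3.58.1 (R 4.3.3) with a variance trend and Benjamini-Hochberg adjustment over all mRNAs, with calls at an adjusted p of 0.05 or less. The fit was tested on simulated data. Python 3.11.15 (pandas 2.3.3, numpy 2.4.6) served for ratios, shares and the exact permutation tests. Of 3 planned paralog ratios, 1 could be computed, since ATP6V1B2 and ATP6V0D2 had no row.

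The members and lists were chosen with earlier results of these data known. Named were all V-ATPase genes in the table, genes of other lists past the threshold or the 2 most abundant, and the 10 mRNAs most like ATP6V1C2. Tried besides were pseudocounts of 0.5 and 0.1, only mRNAs above 1 FPKM in 3 or more samples, scaling by median-of-ratios size factors, quantile normalization, a fit without the trend, a block for the replicate number, and leaving out each sample.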

Additional observations from a re-analysis of the deposited data

How the results depend on the processing

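The deposited table was already filtered, so only a stricter filter was run. It gave 1 call among the 14 subunit genes other than ATP6V1C2 (ATP6V0D1), against 0 under the remaining alternatives. All mRNAs past the threshold numbered 1001, and 401 with the replicate block. With 1 sample left out they numbered 196 to 944, with 304, 196 and 397 without Fetal1, Fetal2 and Fetal3 and 255 and 308 without Neonatal2 and Neonatal3. Of the calls, 78.8% were higher after birth, against 66.0% with median-of-ratios scaling and 57.9% with quantile normalization, where the median difference of all mRNAs was -0.0090 and -0.038.

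Some differences near 0 changed sign, and the cause was not tested. ATP6V1C1 was -0.13 with median-of-ratios scaling, -0.15 with quantile normalization and -0.11 to 0.15 with 1 sample left out. ATP6V1A was -0.012 with median-of-ratios scaling and -0.10 to 0.29 with 1 sample left out. NCOA7 was -0.019 and -5.32e-05 with these scalings. OXR1 ranged from -0.14 to 0.069 with 1 sample left out. The ratio of ATP6V0A4 to ATP6V0A1 ranged from -0.70 to 0.056. Same-numbered samples came from different sows and did not deviate together (correlations -0.041, -0.0043 and 0.00047), and the replicate block changed no other call among these genes. The share of ATP6V0A4 among the a genes moved between -21.2 and -14.8 points and that of ATP6V1C2 among the C genes between -58.0 and -47.1 points, alternatives added after the data were seen. Without read counts, the precision of low genes such as ATP6V1B1 is unknown.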

Other observations

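The genes next to ATP6V1C2, by their order on Sscrofa11.1, were looked up after the data were seen. The 3 nearest with a row in the table are given. NOL10, a nucleolar protein gene and the neighbour on one side, had fetal values of 41.3, 38.8 and 30.7 FPKM and neonatal values of 11.8, 13.9 and 15.4 FPKM (log2 difference -1.36, adjusted p = 0.00981 in limma). PDIA6, a protein disulfide isomerase gene and the neighbour on the other side, had 62.0, 49.6 and 42.7 FPKM and then 101, 124 and 138 FPKM (log2 difference 1.22, adjusted p = 0.0225 in limma). ODC1, the enzyme that starts polyamine synthesis, had a log2 difference of 0.86 (adjusted p = 0.0785 in limma). Both immediate neighbours passed the threshold, as 6.87% of all mRNAs did, in opposite directions.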
